A study of Mus musculus with 6 samples.

Results

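Annexins are a family of cytosolic proteins that bind membranes when calcium rises, and the 10 mouse annexin genes described here, Anxa1 to Anxa8, Anxa11 and Anxa13, were taken by symbol from a table of 22183 genes. All 10 passed the filter on low counts in the libraries of each group and stood among the 14432 genes tested. The RNA came from mouse kidney. In the Wnt1 group, 3 libraries came from mice labelled as overexpressing Wnt1 through a Wnt1 plasmid; Wnt1 is a secreted signal that acts through beta-catenin. In the control group, 3 libraries came from mice given the empty vector pcDNA3. The labels put all libraries in batch 1 and give no strain, sex, age, injury procedure, time after plasmid delivery, or cell type in which the plasmid acted. Nothing in them says that each library was a separate animal, so p-values measure the spread between these libraries, which may be technical. Replicate numbers here are only the order of listing and pair nothing; the libraries titled C3 and PW3 are replicate 2 of their groups.

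Each annexin has a conserved core that grips acidic phospholipids through calcium and a variable N-terminal tail that docks partner proteins. The family is known for membrane repair, for the cell-surface assembly of plasmin by Anxa2, for the anti-inflammatory action of Anxa1, and for the binding of exposed phosphatidylserine by Anxa5. In injured epithelium and in infiltrating leukocytes several of these genes are known to be active.

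The libraries held 23585020 to 27218085 expected counts with the Wnt1 plasmid and 24753193 to 26072435 in controls. The gene on the plasmid did not check the labels. Wnt1 had 0, 1 and 0 counts in Wnt1 replicates 1, 2 and 3 and 0 in each control library, and 3 counts, the limit a count of 0 allows, corresponded to 0.0951 to 0.138 CPM. The sources used here do not give whether reads from the plasmid would be counted under the mouse gene, so these values bear on that gene's entry and not on the plasmid. Replicate 3 of each group stood apart on the second principal component (13.8% of variance), at -50.6 for Wnt1 and -32.8 for control, against 17.3 to 22.6 for the other libraries. Scaling shifts every gene together. With TMM factors, which correct for library composition and are used below, the median gene had a log2 fold change of 0.05; with library totals alone it had 0.47.

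Promoter sequence is shown first for 3 members, because the 2 with the largest folds among those with a window available carry TATAAA close to the RefSeq start, and Anxa11, which did not pass the test, is set beside them. Windows were available in RefSeq (GRCm38.p6) for 7 of the 10 genes, 9 windows in all. Each run below is the 250 bases before the RefSeq start, 5′ to 3′ on the gene's strand, with motif matches in capitals. Anxa1 lies at chr19:20390672-20390921 on the minus strand, Anxa2 at chr9:69453433-69453682 on the plus strand, and Anxa11 at chr14:25841905-25842154 on the plus strand. GENCODE M21 places the outer start of Anxa1 at 20390944 and that of Anxa2 at 69453620, so by that annotation the Anxa1 window and the end of the Anxa2 window, with its TATAAA, lie inside the genes, and every distance below is to the RefSeq start.
Anxa1: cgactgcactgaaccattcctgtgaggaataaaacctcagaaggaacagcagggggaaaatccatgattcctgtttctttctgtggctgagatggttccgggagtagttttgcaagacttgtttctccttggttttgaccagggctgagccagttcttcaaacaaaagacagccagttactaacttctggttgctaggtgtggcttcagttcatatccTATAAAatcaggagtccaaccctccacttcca
Anxa2: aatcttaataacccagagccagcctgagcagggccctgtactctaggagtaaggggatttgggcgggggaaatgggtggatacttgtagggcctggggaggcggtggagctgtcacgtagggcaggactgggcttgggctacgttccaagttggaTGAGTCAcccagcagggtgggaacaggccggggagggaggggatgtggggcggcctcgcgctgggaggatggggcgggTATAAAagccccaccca
Anxa11: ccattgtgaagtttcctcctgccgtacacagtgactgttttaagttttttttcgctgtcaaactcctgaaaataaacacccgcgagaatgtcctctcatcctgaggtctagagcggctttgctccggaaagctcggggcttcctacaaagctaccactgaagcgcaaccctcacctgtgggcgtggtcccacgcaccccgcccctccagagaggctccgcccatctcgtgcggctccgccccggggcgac
The capitals in Anxa1 are TATAAA, first base 32 bases before the start. The capitals in Anxa2 are TGAGTCA, a match to the AP-1 motif TGANTCA 95 bases before the start, and TATAAA 17 bases before it. In Anxa11 none of the motifs searched was found. TATAAA was searched on the gene's strand in the last 40 bases, a choice made after the sequences were seen, and 2.31% of all 32851 promoter windows held it there. The AP-1 motif, searched on both strands over 250 bases, was in 6.75% of all windows and in 1 of the 9 annexin windows. The CRE motif TGACGTCA (1.55% of all windows) and the TCF/LEF motif CTTTGAT (3.21%) were in 0 of the 9. The NF-kappaB motif (0.356% of all windows) was in 1, that of Anxa4, 55 bases before the start. A match describes these letters and does not show that a factor bound.

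Of the 10 annexins, 6 were higher with the Wnt1 plasmid, 1 was lower and 3 did not pass the test. Anxa1, Anxa3 and Anxa2 rose 5.92-fold, 5.52-fold and 4.06-fold, and Anxa6, Anxa5 and Anxa4 rose 1.94-fold, 1.9-fold and 1.5-fold. Anxa13 fell to 0.247 times its control level. Calls come from edgeR's quasi-likelihood test at an adjusted p under 0.05. Of all tested genes, 22.4% were called higher, 18.7% lower and 41.1% in either direction. The annexins had a median log2 fold change of 0.79, against 0.05 for all tested genes. A log2 fold change of at least 2 with a call was met by 3 of 10 annexins and by 6.86% of tested genes.

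Anxa1 encodes a mediator that resolves inflammation through formyl peptide receptors. It was measured at 68.2, 71.6 and 57.5 CPM (read counts scaled to the TMM-adjusted library total) in Wnt1 replicates 1, 2 and 3, and at 12.2, 11.9 and 9.22 CPM in control replicates 1, 2 and 3. Every Wnt1 library lay above every control library. Its log2 fold change was 2.57 ± 0.17 (SE; adjusted p = 4.42e-05 by edgeR). Its level per length averaged 45.6 ± 6.5 FPKM with Wnt1 and 5.74 ± 0.938 FPKM in control (SD, n = 3 each). By FPKM it ranked between 1609 and 2353 among all genes in the Wnt1 libraries, and between 7386 and 8006 in the controls.

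Anxa3, a short-tailed annexin abundant in neutrophils, moved by a similar amount. It had 79.2, 90.3 and 79.6 CPM in Wnt1 replicates 1, 2 and 3, against 15.8, 13.2 and 16.1 CPM in control replicates 1, 2 and 3. The groups were far apart relative to the spread within each. The log2 fold change was 2.46 ± 0.14 (adjusted p = 3.12e-05 by edgeR), with 60.6 ± 6.7 FPKM with Wnt1 and 8.17 ± 0.848 FPKM in control (SD, n = 3 each).

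Anxa2 forms a tetramer with S100a10 that gathers plasminogen and its activator at the cell surface. It had 286, 326 and 438 CPM in Wnt1 replicates 1, 2 and 3, against 84.7, 69.4 and 104 CPM in control replicates 1, 2 and 3. Replicate 3 was the highest in each group, and no Wnt1 library overlapped the controls. The log2 fold change was 2.02 ± 0.21 (adjusted p = 0.000272 by edgeR). In FPKM it averaged 283 ± 55.5 with Wnt1 and 52.7 ± 9.81 in control (SD, n = 3 each), and its rank among all genes was 223 to 300 with Wnt1 and 1295 to 1781 in control.

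**Figure D1:**
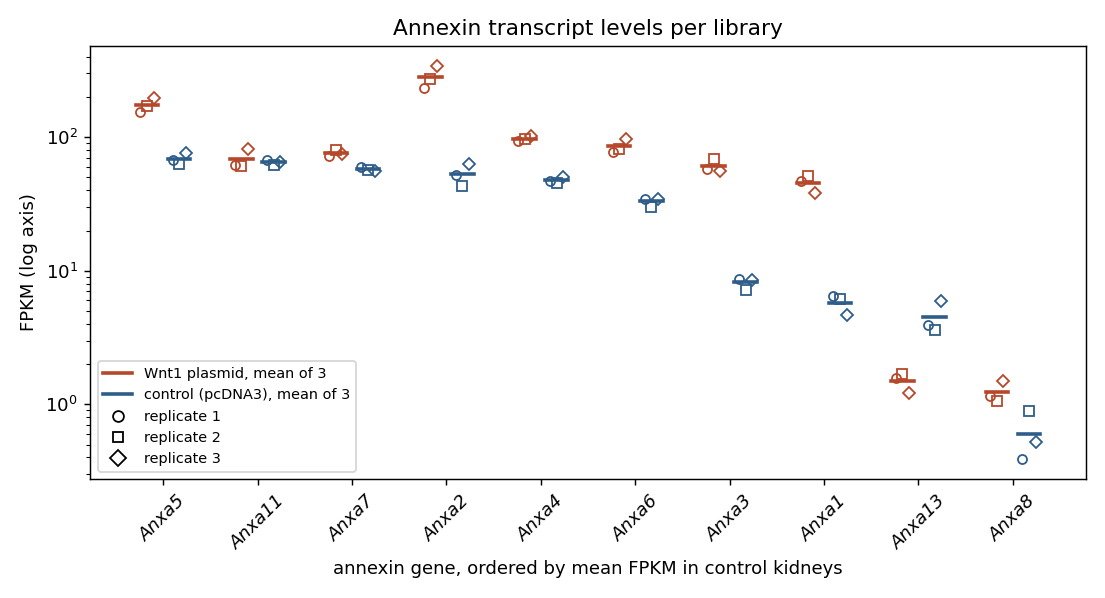
FPKM (log axis) of each annexin in every library, with Wnt1 libraries (red, left of each pair) and control libraries (blue), bars at the mean of 3 and a marker shape per replicate number. Anxa2 averages 283 FPKM with Wnt1 and 52.7 FPKM in control, Anxa1 and Anxa3 lie clear of their controls, and Anxa13 lies below them.

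Anxa5, the phosphatidylserine binder used as a probe for dying cells, had 232, 250 and 303 CPM in Wnt1 replicates 1, 2 and 3, against 133, 124 and 156 CPM in control replicates 1, 2 and 3. The log2 fold change was 0.92 ± 0.15 (adjusted p = 0.00214 by edgeR). Anxa6, whose core is duplicated and which organises membrane cholesterol and endosomes, had 167, 170 and 217 CPM with Wnt1, against 96.6, 86.3 and 102 CPM in control, a log2 fold change of 0.96 ± 0.15 (adjusted p = 0.00155). Anxa4, an annexin of epithelial cells, had 145, 149 and 173 CPM with Wnt1, against 102, 99.4 and 111 CPM in control. Its log2 fold change of 0.58 ± 0.13 was the smallest among the called annexins (adjusted p = 0.0074 by edgeR). For all 6 risen annexins the groups did not overlap in CPM, as was so, with Wnt1 higher, for 28.2% of tested genes.

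Anxa7 and Anxa11 have long N-terminal tails that bind the calcium sensors sorcin and ALG-2. Anxa7 had 175, 189 and 189 CPM in Wnt1 replicates 1, 2 and 3, against 191, 184 and 185 CPM in control replicates 1, 2 and 3. The groups overlapped, and the log2 fold change was -0.02 with a 95% interval of -0.28 to 0.23 (adjusted p = 0.894 by edgeR). With library totals Anxa7 was called at 0.40 (adjusted p = 0.0122), which is below the 0.47 by which that scaling moved the median gene.

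Anxa11, which tethers RNA granules to lysosomes, had 127, 123 and 175 CPM in Wnt1 replicates 1, 2 and 3, against 183, 171 and 183 CPM in control replicates 1, 2 and 3. Wnt1 replicate 3 lay within the control range, and the other 2 Wnt1 libraries lay below it. The log2 fold change was -0.34 (95% interval -0.71 to 0.03; adjusted p = 0.127 by edgeR), and 0.07 with library totals. Without Wnt1 replicate 3 it was -0.52 and called (adjusted p = 0.00291), and without replicate 3 of both groups it was -0.51 (adjusted p = 0.00117). The first of these fits called 3977 of 14622 tested genes lower and the second 30.4%, against 18.7% with all libraries.

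Anxa8, an annexin of stratified epithelium, was scarce. It had 59, 47 and 66 counts in Wnt1 replicates 1, 2 and 3, against 18, 44 and 23 in control replicates 1, 2 and 3. Control replicate 2 stood within the range of the Wnt1 libraries at 1.95 CPM. The log2 fold change was 0.65 ± 0.37 (adjusted p = 0.195 by edgeR). Without control replicate 2 it was 1.14 and called (adjusted p = 0.0435), as it was with library totals at 1.07 (adjusted p = 0.0406). The first of these fits called 2721 of 14686 tested genes higher and the second 44.0%.

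Anxa13, known mainly as an annexin of intestinal epithelium and held to be closest to the ancestor of the vertebrate family, was the single member that fell. It had 59, 55 and 39 counts in Wnt1 replicates 1, 2 and 3, against 134, 129 and 211 in control replicates 1, 2 and 3. In CPM these were 1.87, 1.95 and 1.48, against 6.16, 5.72 and 9.63. The log2 fold change was -2.02 ± 0.27 (adjusted p = 0.000789 by edgeR), and -1.59 by edgeR with library totals. By limma it was -1.51 on log2(FPKM + 0.1) and -1.12 on log2(FPKM + 1). None of these alternatives uses TMM factors, and log2(FPKM + 1) also shrinks changes of low genes. On log2(FPKM + 1), 9.89% of tested genes were called lower. In GENCODE M21 this gene is annotated as a processed transcript, not as protein coding.

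**Figure D2:**
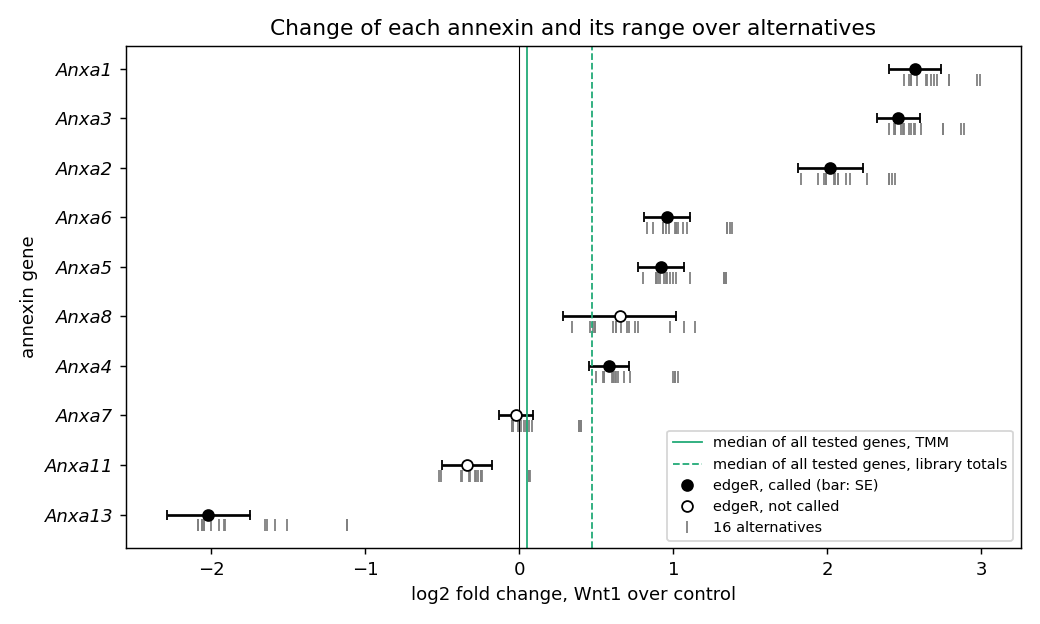
Log2 fold change of each annexin, Wnt1 over control, with its SE (filled points called, open points not called) and grey ticks for 16 alternatives. The lines mark the median of all tested genes at 0.05 (TMM) and 0.47 (library totals); the 7 called members keep their direction and call in each alternative.

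The 3 members that were not called, Anxa7, Anxa8 and Anxa11, all lie on chromosome 14 in GRCm38, at 20455260 to 20480133, 34085981 to 34100571 and 25842156 to 25886804. This was noticed after the values were seen. Of the 498 tested genes on that chromosome 40.6% were called, near the 41.1% of the whole table. The called members lie on 7 other chromosomes: Anxa1 on 19 (20373428 to 20390944), Anxa2 on 9 (69453620 to 69491795), Anxa3 on 5 (96793339 to 96845966), Anxa4 on 6 (86736840 to 86793584), Anxa5 on 3 (36448923 to 36475894), Anxa6 on 11 (54979108 to 55033445) and Anxa13 on 15 (58341471 to 58389244). Exons of Anxa2, Anxa4 and Anxa11 overlap those of antisense-strand genes by 98, 75 and 113 bases, and those of Anxa3 overlap a same-strand gene by 112 bases. The sources used here do not give whether counting used strand, so reads of such stretches cannot be assigned with certainty.

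The make-up of the family differed between the groups. Summed over the 10 genes, annexins took 0.151% to 0.183% of all FPKM in the Wnt1 libraries and 0.0563% to 0.0634% in controls. Anxa2 made up 31.5 ± 2.77% of that sum with Wnt1 and 15.2 ± 1.8% in control. Anxa11 made up 7.6 ± 0.676% with Wnt1 and 18.9 ± 0.928% in control, and Anxa7 8.52 ± 0.831% with Wnt1 and 16.8 ± 1.31% in control (SD, n = 3 each). These shares fell in a larger sum, and the mean FPKM of neither gene fell. Anxa11 averaged 68.1 FPKM with Wnt1 and 64.8 in control, and Anxa7 75.7 with Wnt1 and 57.4 in control. FPKM is scaled to the library total and not by TMM factors. By limma on log2(FPKM + 1) the median tested gene itself stood at 0.36. On the TMM scale the log2 fold change was -0.34 for Anxa11 and -0.02 for Anxa7, neither called. Anxa5 kept nearly the same share, at 19.5 ± 0.194% with Wnt1 and 20 ± 0.824% in control, as did Anxa6 at 9.59 ± 0.34% with Wnt1 and 9.61 ± 0.212% in control. Mean FPKM rose for both, to 175 with Wnt1 from 68.9 in control for Anxa5 and to 85.8 from 33 for Anxa6.

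The order of levels changed with it. With Wnt1, Anxa2 led in all 3 libraries, its lowest value (233 FPKM) lying above the highest of Anxa5 (196 FPKM), and Anxa5 lay clear of Anxa4 (102 FPKM at most). From Anxa4 down through Anxa6, Anxa7, Anxa11 and Anxa3, each member's range overlapped the next. In control, Anxa5 came first in all 3 libraries and Anxa11 second, and their ranges overlapped (62.4 and 67.3 FPKM at the nearest ends). Anxa7, Anxa2 and Anxa4 followed with overlapping neighbours, and Anxa6, Anxa3 and Anxa1 each lay clear below. Anxa13 and Anxa8 were at the foot in the means of both groups.

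**Figure D3:**
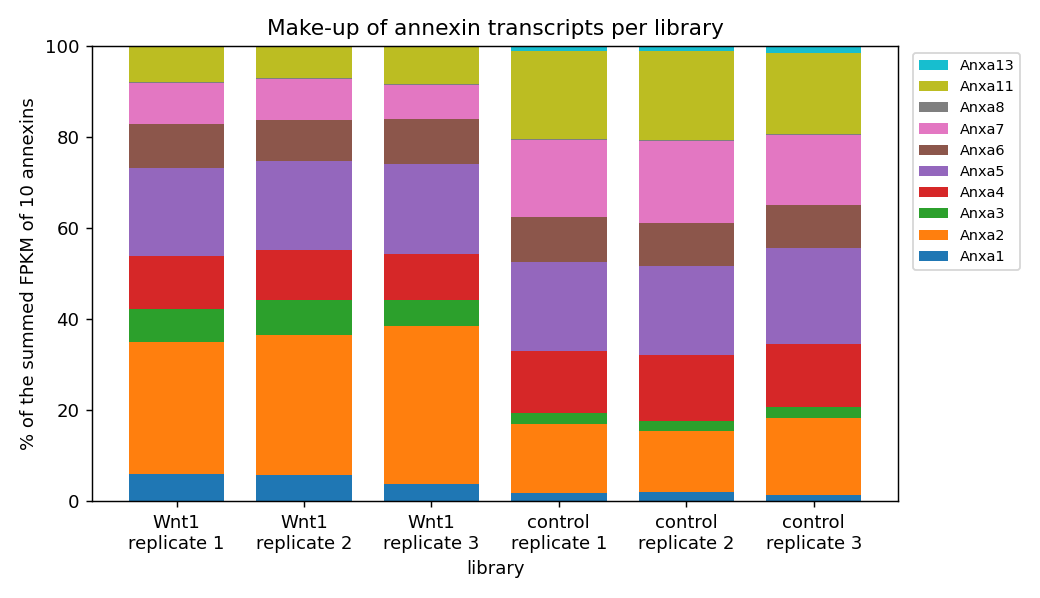
Share (%) of the summed FPKM of 10 annexins taken by each gene, 1 bar per library, Wnt1 libraries on the left and control libraries on the right. Anxa2 takes 29.1% to 34.6% of the Wnt1 bars and 13.5% to 17.1% of the control bars, and Anxa11 averages 7.6% of the Wnt1 bars and 18.9% of the control bars.

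Ratios within a library do not depend on how libraries are scaled, and 12 were compared. Anxa2 relative to S100a10, its tetramer partner, had a log2 FPKM ratio of -0.25, -0.02 and 0.22 in Wnt1 replicates 1, 2 and 3, against -0.81, -0.98 and -0.65 in control replicates 1, 2 and 3. The mean difference was 0.80, so Anxa2 rose by more than its partner, and the FPKM of the pair was about equal with Wnt1. Anxa1 relative to S100a11, which binds its N-terminus, had log2 ratios of -3.57, -3.64 and -4.26 with Wnt1, against -4.68, -4.84 and -5.55 in control, a mean difference of 1.20. Both pairs separated the groups, with p = 0.1 by an exact two-sided permutation test (adjusted p = 0.12 over the 12 ratios), the smallest p that 3 against 3 libraries allow. For 82.9% of other tested genes, S100a10 among them, the ratio to Anxa2 was lower in every Wnt1 library than in every control library. The separation of Anxa2 and S100a10 is thus near the background. No such share was computed for ratios to S100a11, so that pair has no background beside it.

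Relative to Anxa2, the log2 ratio of Anxa5 differed by -1.09 between Wnt1 and control, that of Anxa4 by -1.40, of Anxa6 by -1.05, of Anxa7 by -2.03, of Anxa8 by -1.32, of Anxa11 by -2.37 and of Anxa13 by -4.00. In each of these the groups did not overlap (exact permutation p = 0.1, adjusted p = 0.12). Anxa2 itself rose, and 82.9% of all other tested genes likewise had a ratio to Anxa2 that was lower in every Wnt1 library than in every control library, so this separation is near the background. The ratios of Anxa1 and Anxa3 to Anxa2 overlapped between the groups, with differences of 0.57 and 0.46 (exact permutation p = 0.3, adjusted p = 0.3). Anxa7 relative to Anxa11 differed by 0.34 (exact permutation p = 0.1, adjusted p = 0.12).

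**Figure D4:**
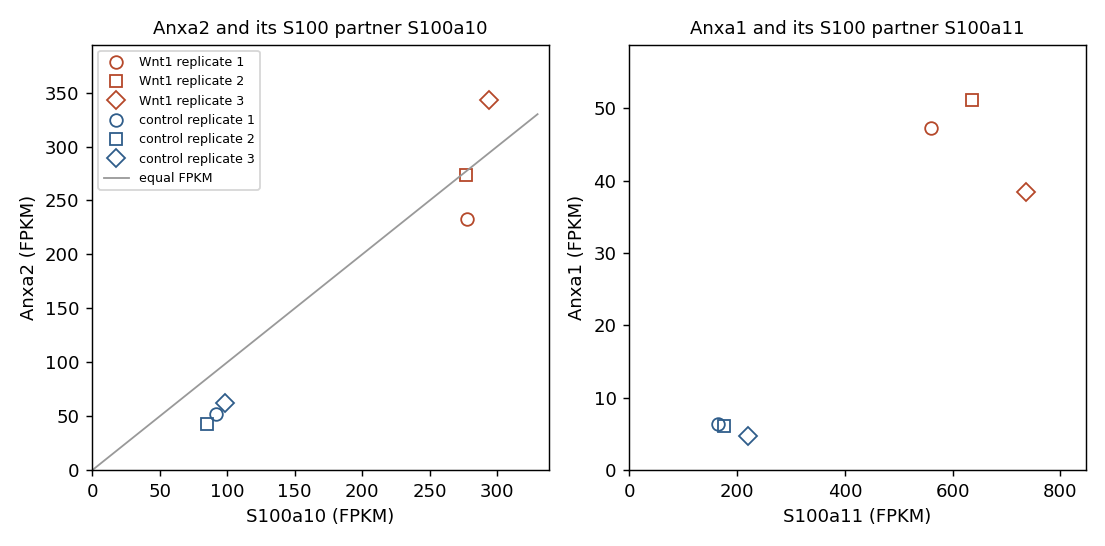
FPKM of Anxa2 against S100a10 (left) and of Anxa1 against S100a11 (right), 1 point per library, Wnt1 in red and control in blue. Control points lie below the line of equal FPKM for Anxa2 and S100a10, and Wnt1 points lie on both sides of it; replicate 3 of each group is lowest in Anxa1 and highest in S100a11.

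Replicate 3 of each group, the pair that stood apart on the second component, was not high or low for all annexins alike. Relative to the group mean in log2 CPM, Anxa2 stood at 0.35 in Wnt1 replicate 3 and 0.30 in control replicate 3, and Anxa5 at 0.22 and 0.19. Anxa1 stood at -0.19 in Wnt1 replicate 3 and at -0.26 in control replicate 3. Anxa13 differed between them, at -0.24 in Wnt1 replicate 3 and 0.46 in control replicate 3. Without both of these libraries the counts for the family were 6 higher and 2 lower, the second being Anxa11, where 62.5% of all tested genes were called, 32.0% higher and 30.4% lower.

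Markers of several cell types differed in the same libraries. Of 11 macrophage markers, 10 passed the filter in both groups and all 10 were called higher; the 11 summed to 1811 to 2193 CPM with Wnt1 and 225 to 274 CPM in control, with none at 0. Of 9 neutrophil markers, 4 passed the filter, 3 of them (S100a8, S100a9 and Cxcr2) through the Wnt1 libraries alone, so their direction was fixed by the filter; the 9 summed to 13.5 to 18.6 CPM with Wnt1 and 1.2 to 1.47 CPM in control, with Camp at 0 in every library. All 8 fibroblast and mural cell markers were higher (2005 to 3315 CPM with Wnt1, 482 to 631 CPM in control), as were all 8 tubular injury markers that passed the filter in both groups (of 10, which summed to 14544 to 22420 CPM with Wnt1, 1645 to 1960 CPM in control). Of 10 proximal tubule markers 9 were lower (4168 to 5443 CPM with Wnt1, 18487 to 19181 CPM in control), and all 10 were detected. Over all 13209 tested genes that passed the filter in both groups, 2550 were higher and 2595 lower. In bulk RNA, fewer cells of a type and less RNA per cell cannot be told apart, and the part of these cells in the annexin changes was not tested.

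Among protein partners of annexins, 5 of 8 tested genes were higher, 0 lower and 3 not called, with a median log2 fold change of 1.10. The background over all tested genes was 22.4% higher and 18.7% lower, with a median of 0.05. The list held 10 symbols, of which 9 were in the table. S100a10 had 164, 159 and 180 CPM in Wnt1 replicates 1, 2 and 3, against 71.6, 67.1 and 79.3 CPM in control replicates 1, 2 and 3 (1.21 ± 0.13; adjusted p = 0.000254 by edgeR). S100a11 had a log2 fold change of 1.37 ± 0.18 (adjusted p = 0.000669). S100a6, which binds Anxa2 and Anxa11 among others, had the largest change of the list at 2.98 ± 0.23 (adjusted p = 8.12e-05), with 102 ± 28.8 CPM with Wnt1 and 13 ± 1.92 CPM in control (SD, n = 3 each). Ahnak, a giant scaffold held at the membrane by the S100a10 and Anxa2 complex, rose by 0.99 ± 0.16 (adjusted p = 0.00193).

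The other 3 tested partners were not called. Sri, which encodes sorcin, a partner of Anxa7, had a log2 fold change of 0.14 ± 0.12 (adjusted p = 0.367 by edgeR), and with library totals it was called at 0.56. On that scaling the median gene stood at 0.47 and 44.0% of tested genes were called higher. Pdcd6, which encodes ALG-2, a partner of Anxa7 and Anxa11, had -0.18 ± 0.13 (adjusted p = 0.306), and without Wnt1 replicate 3 it was called lower at -0.28 (adjusted p = 0.0369). That fit called 3977 of 14622 tested genes lower. S100a1 was the third at -0.10 ± 0.19 (adjusted p = 0.72). These 3 were named after their values were seen.

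Genes of the plasminogen system, which Anxa2 recruits, gave 4 higher and 2 lower of 8 tested, out of 10 listed. The background over all tested genes was 22.4% higher and 18.7% lower. Serpine2, an inhibitor of serine proteases, rose by 2.29 ± 0.16 (adjusted p = 6e-05 by edgeR), and Plat, the tissue activator that binds Anxa2, by 1.07 ± 0.12 (adjusted p = 0.000406). Serpinf2, the plasmin inhibitor alpha 2-antiplasmin, fell, at -2.74 ± 0.23 (adjusted p = 0.000105), with 59.6 ± 15.2 CPM with Wnt1 and 397 ± 73.8 CPM in control (SD, n = 3 each). Plau, urokinase, was lower by a small amount at -0.51 ± 0.14 (adjusted p = 0.0184). That call was lost with library totals (-0.09), without Wnt1 replicate 1 (-0.43; adjusted p = 0.0738) and without control replicate 1 (-0.39; adjusted p = 0.0711). Plg itself, plasminogen, named outside the rule, had 2 to 5 counts in Wnt1 libraries and 6 to 16 in controls and was not tested.

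A list of Anxa1 receptors, enzymes of phospholipase A2 and leukotriene synthesis, and glucocorticoid-response genes held 12 genes, of which 9 were tested. Fpr1 and Fpr2 passed the filter through the Wnt1 libraries alone, so their direction was fixed by it. Of the other 7 genes 4 were higher and 1 lower. Over all 13209 tested genes that passed in both groups, 2550 were higher and 2595 lower. Fpr2, the main receptor of Anxa1, had 70, 70 and 51 counts in Wnt1 replicates 1, 2 and 3, against 4, 1 and 7 in control replicates 1, 2 and 3. Its log2 fold change was 3.57 ± 0.48 by edgeR, 4.33 without control replicate 3 and 1.64 on log2(FPKM + 1). These values describe the size of the difference and do not test its direction. Fpr1 had 117 counts over the Wnt1 libraries and 2 over the controls, a ratio of 45 with an exact 95% interval of 12.2 to 376 for counting error only. Both receptors are known from phagocytes. Macrophage markers were higher in the same libraries, and the part of these cells in the receptor values was not tested. Alox5ap, which serves leukotriene synthesis downstream of phospholipase A2, rose by 2.60 ± 0.17 (adjusted p = 4.8e-05). Dusp1, a phosphatase induced by glucocorticoids as Anxa1 is, fell, at -1.37 ± 0.22 (adjusted p = 0.00188). Tsc22d3 and Nr3c1, also listed and named outside the rule, were not called by edgeR. Tsc22d3 had 0.45 ± 0.30 (adjusted p = 0.272) and Nr3c1 0.00 ± 0.36 (adjusted p = 0.998). Tsc22d3 was called higher at 0.87 with library totals, where 44.0% of tested genes were called higher and the median gene stood at 0.47. By limma it was called at 0.83 on log2(FPKM + 1), with 41.1% of tested genes higher, and at 0.86 on log2(FPKM + 0.1). It was called at 0.87 without control replicate 3, with 3054 of 14688 tested genes higher. Without replicate 3 of both groups it was called at 0.50, with 32.0% higher.

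Genes of membrane repair gave 6 higher, 3 lower and 9 not called of 18 tested, out of 20 listed, with a median log2 fold change of 0.26, where the background was 22.4% higher and 18.7% lower; with library totals the counts were 13 higher and 1 lower, at a background of 44.0% higher and 8.92% lower. Myof, which encodes the ferlin myoferlin, had 241, 273 and 232 CPM with Wnt1, against 55, 53 and 50.5 CPM in control (2.24 ± 0.13; adjusted p = 2.92e-05 by edgeR). Dysf, encoding dysferlin, a ferlin that meets Anxa1 and Anxa2 at wounds, rose by 0.80 ± 0.14 (adjusted p = 0.00313), and Capn2, a calpain subunit, by 0.56 ± 0.11 (adjusted p = 0.00481). Syt7, a calcium sensor of lysosome exocytosis, fell, at -1.47 ± 0.23 (adjusted p = 0.00174).

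Genes that expose or recognise phosphatidylserine, the lipid that Anxa5 binds, held 21 genes, of which 18 were tested. Of the 17 that passed the filter in both groups, 8 were higher and 4 lower, with a median log2 fold change of 0.23. Over all 13209 tested genes that passed in both groups, 2550 were higher and 2595 lower, with a median of 0.01. The other tested gene of the list, Cd300lf, passed through the Wnt1 libraries alone. Havcr1, a phosphatidylserine receptor of injured tubule that is also among the tubular injury markers above, had 388, 568 and 384 CPM with Wnt1, against 2.71, 1.73 and 3.33 CPM in control (7.43 ± 0.31; adjusted p = 1.66e-05 by edgeR). Cd300lf, a myeloid phosphatidylserine receptor, had 218 counts over the Wnt1 libraries and 3 over the controls, a ratio of 55.9 with an exact 95% interval of 18.9 to 273. Stab1, a scavenger receptor, rose by 1.68 ± 0.17 (adjusted p = 0.000199). Atp11a, a flippase that keeps phosphatidylserine on the inner leaflet, fell, at -1.45 ± 0.14 (adjusted p = 2e-04), with 684 ± 48.7 CPM with Wnt1 and 1866 ± 204 CPM in control (SD, n = 3 each).

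**Figure D5:**
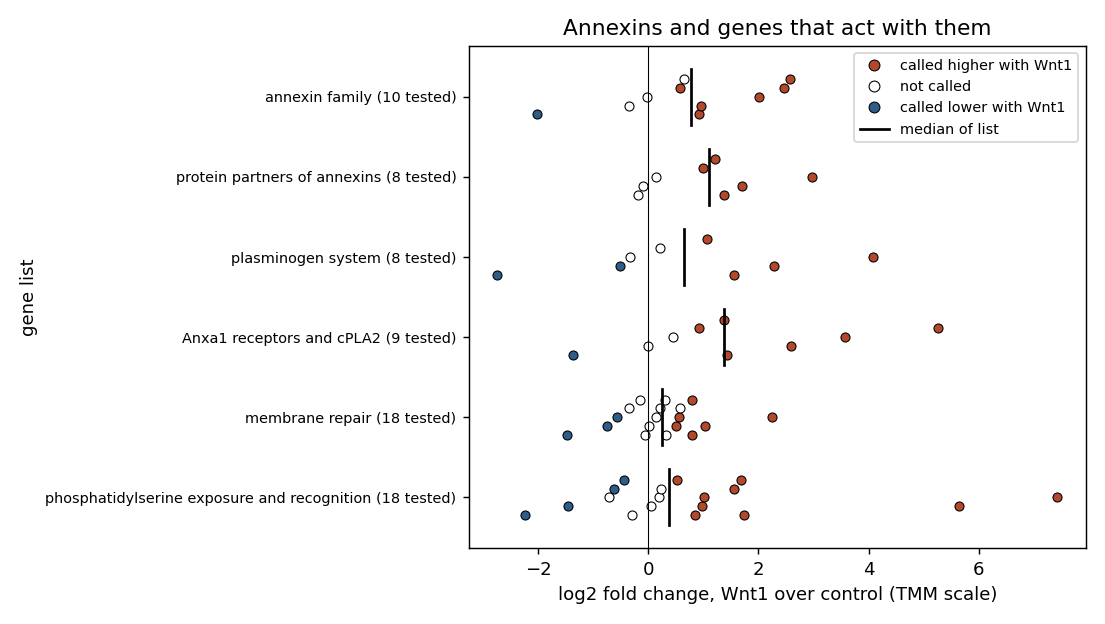
Log2 fold change, Wnt1 over control on the TMM scale, of each tested gene in the annexin family and in 5 lists of genes that act with annexins, with called genes filled and list medians as bars. Medians as drawn run from 0.26 (membrane repair) to 1.37 (Anxa1 receptors and cPLA2). The points of Fpr1, Fpr2 and Cd300lf belong to genes that passed the filter through the Wnt1 libraries alone. Without them the median is 0.92 for Anxa1 receptors and cPLA2 and 0.23 for the phosphatidylserine list.

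Profiles most like those of the called annexins were sought among 14061 named genes, by the root mean square difference over 6 libraries in log2 CPM centred on the control mean. The nearest genes were Rab7b (0.098) and Golm1 (0.105) for Anxa1, Efemp2 (0.065) and Asf1b (0.074) for Anxa2, and Dock2 (0.081) and Pstpip1 (0.089) for Anxa3. For Anxa4 they were Arl6ip5 (0.014) and Dbn1 (0.026), for Anxa5 Apex1 (0.019) and Praf2 (0.047), and for Anxa6 Ksr1 (0.048) and Praf2 (0.055). Anxa13 had the least close neighbours, Rtp3 (0.159) and Nxpe3 (0.202).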

How the data were processed

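RNA was extracted with Trizol, enriched on oligo(dT) beads, prepared with an NEBNext Ultra kit and sequenced on a NovaSeq, per the labels' protocols. The submitters' processing notes name fastp 0.18.0, Bowtie2 2.2.8, HISAT2, StringTie 1.3.1, RSEM and mm10. The sources used here do not give tool roles, annotation release or strand. The authors deposited expected counts, which are estimated reads per gene (9.02% not whole within 1e-06, all rounded here). The authors made the FPKM values, scaled for transcript length and library total, before they were deposited. Counts were tested in R 4.3.3 with edgeR 4.0.16: filterByExpr, TMM factors, robust quasi-likelihood test, two-sided, Benjamini-Hochberg over 14432 genes. The SE was derived from the coefficient and the F statistic; the pipeline was tested on simulated data. CPM uses TMM-scaled totals; levels between genes use FPKM. Intervals and floors cover counting error only. The members and lists were chosen with earlier results of these data known. Named genes are all members, S100a10, S100a11, Fpr2, Plau, and, from each list, at most 4 called genes, lowest p first. A gene that this rule names in the plasminogen list is not reported here. Alternatives used DESeq2 1.42.0, limma 3.58.1 on log2 FPKM, other factors and filters, and left-out libraries. Coordinates come from GENCODE M21 (GRCm38), in which all 10 annexin identifiers matched. Anxa9 (log2 fold change 0.03) and Anxa10 (0 counts) lie outside the list.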

Additional observations from a re-analysis of the deposited data

How the results depend on the processing

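The calls of Anxa1, Anxa2, Anxa3, Anxa4, Anxa5, Anxa6 and Anxa13 kept their direction and their side of the threshold in all 16 alternative fits; log2 fold changes ran from 0.50 (Anxa4) to 2.99 (Anxa1) for those that rose and from -2.09 to -1.12 for Anxa13. Those of Anxa7, Anxa8 and Anxa11 changed in 4, 4 and 2 of 16. Over fits leaving out one library, annexins called higher numbered 6 to 7 and lower 1 to 2 (2 also without replicate 3 of both groups). Partners called lower numbered 0 to 1 (1 also without replicate 3 of both groups), plasminogen genes called lower 1 to 3, and phosphatidylserine genes called lower 2 to 5. Over all 14558 to 14689 tested genes, these fits called 2681 (without Wnt1 replicate 2) to 4165 (without Wnt1 replicate 3) higher. They called 1797 (without control replicate 2) to 3977 (without Wnt1 replicate 3) lower. Without replicate 3 of both groups, 32.0% were called higher and 30.4% lower. With library totals, and with limma on log2(FPKM + 1) and log2(FPKM + 0.1), membrane repair gave 13 higher and 1 lower, phosphatidylserine genes 2 lower and plasminogen genes 1 lower. Over all tested genes, library totals called 44.0% higher and 8.92% lower, and limma on log2(FPKM + 1) 41.1% higher and 9.89% lower. Limma on log2(FPKM + 0.1) called 5139 higher and 1234 lower of 12520. Limma on log2(FPKM + 1) with no filter gave 12 higher and 1 lower for membrane repair, 2 and 1 lower for the phosphatidylserine and plasminogen lists, and 0 lower for Anxa1 receptors. That fit called 4890 higher and 1031 lower of all 22183 genes. Ratios of CPM gave the same directions as ratios of FPKM. The cause of these shifts was not tested beyond the scaling itself, which put the median log2 fold change of all genes at 0.47 with library totals and at 0.05 with TMM factors. No paired analysis was possible because the titles of the groups share only 1 number (C3 and PW3, replicate 2 here), and the replicate numbers used here are the order of listing. Depth limits Anxa8 and Anxa13, which had 18 to 66 and 39 to 211 counts per library.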
